A study of Mus musculus with 8 samples.

Results

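RUNX proteins are transcription factors that bind DNA through a Runt domain, and the genes described here are the mouse family members Runx1, Runx2 and Runx3, their shared partner subunit Cbfb, and Runx1t1. All array probes that were not controls and whose transcript accession belonged to one of these genes in the RefSeq gene table were taken. This gave 8 of 55681 probes and 5 of 20660 named genes, with 2 probes each for Runx1, Runx2 and Runx3 and 1 each for Cbfb and Runx1t1. Each member probe was printed once on the array. Of the 8 probes, 6 were well above background on all 8 arrays, as judged by the scanner software, and were tested.

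CBF-beta, the product of Cbfb, does not bind DNA itself but raises the affinity of RUNX proteins for it. RUNX1 is needed for blood stem cells to form in the embryo and later for platelet and lymphoid development, RUNX2 drives bone formation, and RUNX3 acts in cytotoxic T cells and natural killer cells. RUNX1T1 is a corepressor protein known as a fusion partner of RUNX1 in acute myeloid leukemia.

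RNA came from sorted mouse LSK cells of C57BL/6 background, the bone marrow fraction without lineage markers and with c-Kit and Sca-1, in which stem cells and early progenitors lie. CD45.2 stem cells carrying Cre-ERT, an inducible recombinase, and either wild-type or floxed Ezh2 had been transduced with a retrovirus that was empty or carried RUNX1S291fs, a frameshift form of RUNX1, and grafted with wild-type CD45.1 marrow into irradiated mice. Ezh2, the methyltransferase of Polycomb repressive complex PRC2, was then deleted. At month 4 after grafting, cells pooled from 2 to 4 mice gave 1 array each for empty virus with wild-type Ezh2 (WT), empty virus with deleted Ezh2 (Ezh2_deleted), RUNX1S291fs with wild-type Ezh2 (RUNX1_mutant) and RUNX1S291fs with deleted Ezh2 (Double_mutant). The wild-type CD45.1 cells of mice that held RUNX1_mutant or Double_mutant cells gave 1 array each (CD45.1_in_RUNX1_mutant, CD45.1_in_double_mutant). They received neither Cre-ERT nor virus in the design as described. CD45.2 cells with both lesions from 2 single moribund mice gave 1 array each, one with myelodysplastic syndrome (Double_MDS) and one with myelodysplastic syndrome and myeloid leukemia (Double_MDS_ML). The labels do not state how old the moribund mice were.

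No group had a second array, so differences between single arrays have no test and the number of arrays limits the precision. Between 43.9% and 55.3% of probes were well above background, and the array of CD45.1_in_RUNX1_mutant was the dimmest. The LSK markers Kit, Ly6a, Ptprc, Cd34 and Flt3 were well above background on all 8 arrays, but their mean level was 1.67 and 2.06 on the moribund arrays against 3.90 to 4.93 at month 4. The arrays lay on 3 slides, the first with WT, Double_mutant and Double_MDS, the second with both CD45.1 arrays, RUNX1_mutant and Ezh2_deleted, and the third with Double_MDS_ML alone. Xist, expressed from the inactive X chromosome, was not well above background on Ezh2_deleted and Double_MDS_ML, which were also the only arrays with the Y-linked Ddx3y above it, so these 2 arrays differ from the other 6 in the sex of the cells. The Ezh2 probe read 3.10 to 3.51 on the 4 arrays labelled as deleted and 3.40 to 4.01 on the others. No label says whether it lies in the deleted part, so it does not check the labels. All levels below are log2 signal relative to the 75th percentile of the same array, and a level of 0 lies at that percentile.

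To show what lies in front of the transcript starts of these genes, the 250 bases before each RefSeq start were searched. RefSeq (GRCm38.p6) gave 6 starts for 4 of the 5 genes. CpG pairs are shown for Runx1, because CpG-rich promoters are known places of Polycomb binding and Ezh2 was deleted in 4 of the 8 groups. The 2 starts of Runx1 differ in this respect, with 2 CpG pairs before the distal start and 27 before the second, against a median of 6 over 32851 promoters. In the first 2 sequences below, capitals mark CpG, and both read 5′ to 3′ on the minus strand.
Runx1 distal start, chr16:92826075-92826324: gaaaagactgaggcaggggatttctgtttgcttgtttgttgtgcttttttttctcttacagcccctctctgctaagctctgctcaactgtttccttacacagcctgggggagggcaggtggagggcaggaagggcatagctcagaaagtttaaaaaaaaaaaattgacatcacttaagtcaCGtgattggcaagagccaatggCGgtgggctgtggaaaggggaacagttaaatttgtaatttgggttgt
Runx1 second start, chr16:92697330-92697579: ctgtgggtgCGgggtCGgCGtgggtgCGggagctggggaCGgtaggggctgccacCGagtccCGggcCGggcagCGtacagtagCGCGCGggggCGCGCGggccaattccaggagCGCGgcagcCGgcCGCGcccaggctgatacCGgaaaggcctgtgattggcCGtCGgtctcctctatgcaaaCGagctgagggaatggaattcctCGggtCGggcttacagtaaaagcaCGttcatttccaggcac
For Runx2 and Runx3 the sequences show the RUNX motif TGTGGT, searched on both strands, whose reverse complement is ACCACA. It was found in 14.0% of promoters at least 1 time and in 1.27% at least 2 times. Capitals mark the motif in the next 2 sequences. Runx2 is on the minus strand and Runx3 on the plus strand.
Runx2, chr17:44814628-44814877: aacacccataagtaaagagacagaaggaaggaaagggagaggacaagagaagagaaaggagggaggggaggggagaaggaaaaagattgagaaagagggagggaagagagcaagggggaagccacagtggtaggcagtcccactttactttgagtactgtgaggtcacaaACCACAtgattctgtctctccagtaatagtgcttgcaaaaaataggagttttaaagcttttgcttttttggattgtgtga
Runx3 distal start, chr4:135120395-135120644: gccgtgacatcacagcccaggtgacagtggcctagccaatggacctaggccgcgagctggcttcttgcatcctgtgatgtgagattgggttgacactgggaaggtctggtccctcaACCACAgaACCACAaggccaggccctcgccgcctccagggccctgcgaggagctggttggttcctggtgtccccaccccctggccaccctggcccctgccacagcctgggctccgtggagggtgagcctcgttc
The Runx3 sequence held 2 matches, 134 and 126 bases before the start, and the Runx2 sequence held 1, 80 bases before it. The Runx2 gene spans 44495987 to 44814797, so its sequence shown here lies partly within the gene, the match included. The remaining 4 sequences, including both of Runx1 and that of Cbfb at chr8:105170424-105170673, held no match to these letters. The second start of Runx3 at chr4:135152295-135152544 had 38 CpG pairs, the Cbfb start 25, the distal Runx3 start 8 and the Runx2 start 0. These matches describe the letters only. No binding or chromatin data were analysed here.

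Runx1, on chromosome 16 from 92601466 to 92826074, was read by 2 probes, and both were higher on the arrays of the moribund mice than on every array of month 4. Probe A_55_P2183438 (NM_001111022) read 3.04 on WT, 3.25 on CD45.1_in_RUNX1_mutant, 3.38 on Ezh2_deleted, 3.47 on Double_mutant and 3.55 on CD45.1_in_double_mutant. The same probe read 4.41 on RUNX1_mutant, 4.65 on Double_MDS_ML and 5.31 on Double_MDS. Thus 5 arrays lay close together and 3 arrays, all with RUNX1S291fs, stood above them, while Double_mutant, which also carries RUNX1S291fs, lay among the low arrays. The 2 gaps between neighbours larger than the residual SD of 0.43 were those of 0.86 below RUNX1_mutant and 0.66 between Double_MDS_ML and Double_MDS. Here and in what follows, the residual SD of a probe comes from the additive model described below. Limma moderates it toward a value estimated from all probes. The difference between 2 single arrays varies more than this SD, so a gap just above it is no evidence of a step.

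The other Runx1 probe, A_51_P206585 (NM_009821), read 1.80 on CD45.1_in_RUNX1_mutant, 2.08 on Double_mutant, 2.09 on Ezh2_deleted, 2.49 on CD45.1_in_double_mutant and 2.54 on WT. It read 2.71 on RUNX1_mutant, 3.65 on Double_MDS and 4.06 on Double_MDS_ML. Here the 2 moribund arrays stood alone, and RUNX1_mutant was next to WT. The gaps of 0.40 above Ezh2_deleted, 0.95 above RUNX1_mutant and 0.41 above Double_MDS exceeded the residual SD of 0.40. They were 1.00, 2.37 and 1.02 times this SD. Both probes spanned a range of 2.27 over the 8 arrays, 4.84-fold and 4.81-fold, which was wider than 86.0% and 85.9% of the 22614 probes well above background on all 8 arrays.

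**Figure D1:**
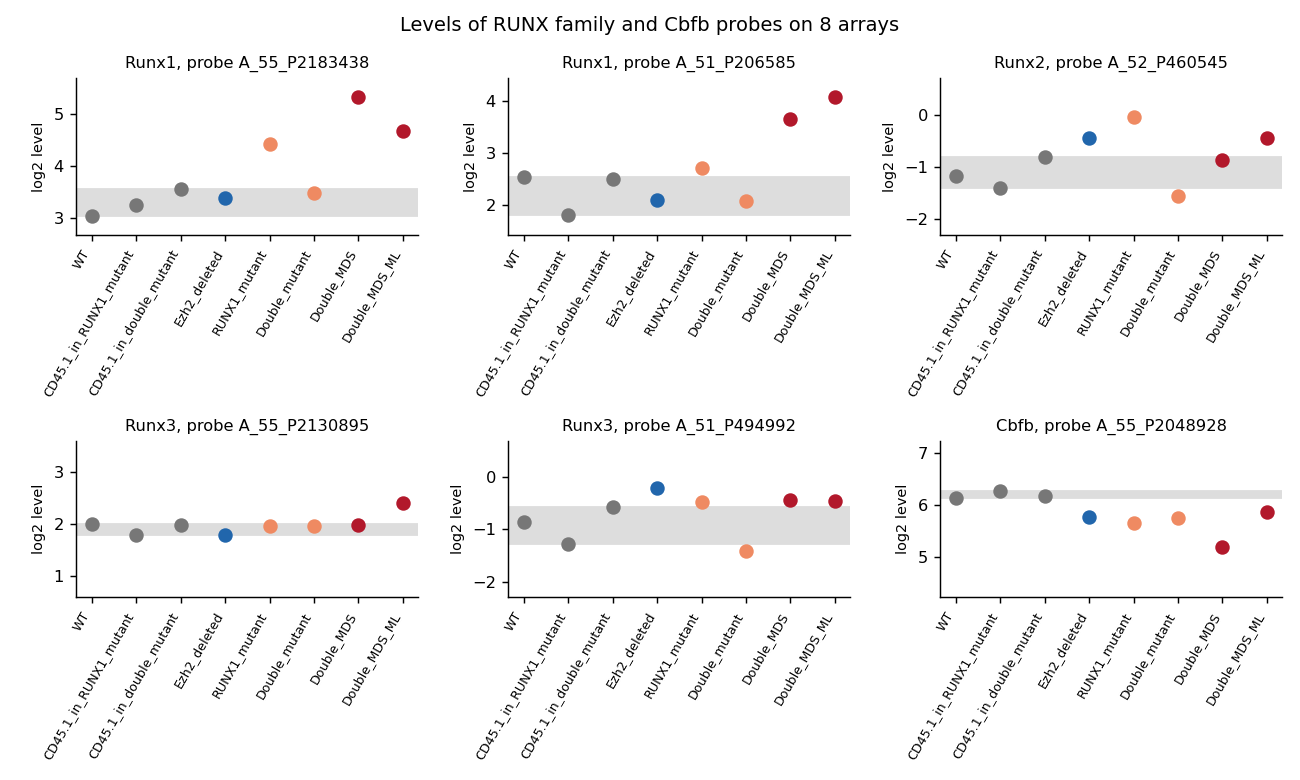
Log2 level (75th percentile of the array = 0) of the 6 member probes well above background on all 8 arrays, 1 point for each array and 1 panel for each probe, with the same span on every vertical axis. Grey points are wild-type cells and the grey band is their range, blue is Ezh2_deleted, orange RUNX1_mutant and Double_mutant, and red the moribund mice. The 2 red points are above all others for both Runx1 probes, and the 3 grey points are above all others for Cbfb.

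The 2 Runx1 probes did not give the same change for every group. Relative to the WT array, RUNX1_mutant was 1.38 higher on A_55_P2183438 and 0.17 higher on A_51_P206585, a disagreement of 1.21. For Double_MDS the changes were 2.27 and 1.12, and for Double_MDS_ML they were 1.62 and 1.52. Ezh2_deleted and Double_mutant were 0.34 and 0.43 above WT on the first probe but differed from it by -0.45 and -0.46 on the second. The direction of these small changes therefore differed between the probes, and WT was the lowest of 8 arrays on one probe and in the middle of the order on the other. Over the 8 arrays the probes had a Pearson r of 0.84, between 0.80 and 0.89 when any 1 array was left out. Both probes share the same 8 RNA samples, so this r describes the order of arrays and carries no test. The probes name different transcripts. The sources used here do not say where they lie in them, or whether they read the retroviral transcript.

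**Figure D2:**
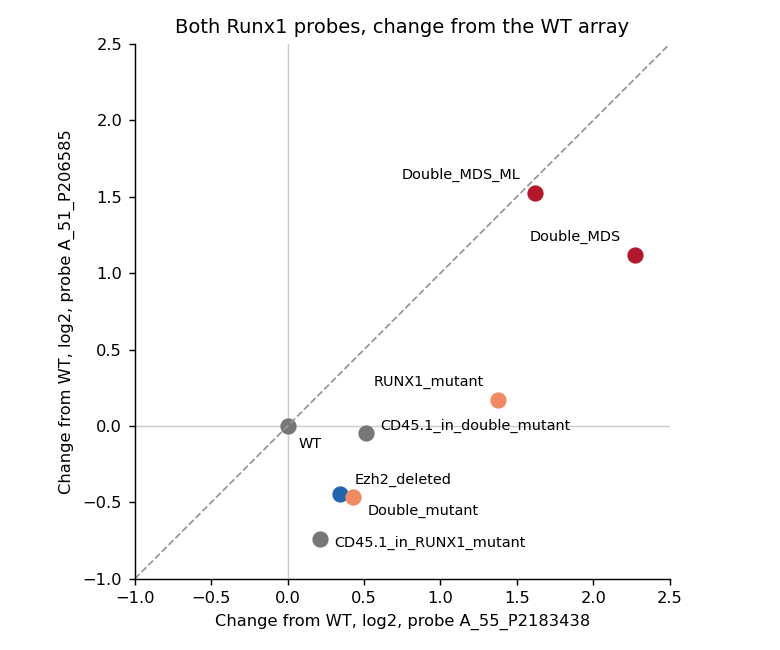
Change from the WT array in log2 for Runx1 probe A_55_P2183438 (horizontal) and A_51_P206585 (vertical), 1 labelled point for each array, with the dashed line marking equal change. The moribund arrays lie highest on both axes, while RUNX1_mutant lies far from the line at 1.38 against 0.17.

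In a model with additive terms for RUNX1S291fs (4 arrays), deleted Ezh2 (4 arrays) and moribund stage (2 arrays), the stage effect on Runx1 was 1.20 (SE 0.47, 95% interval 0.10 to 2.30) for A_55_P2183438 and 1.65 (SE 0.44, 95% interval 0.63 to 2.67) for A_51_P206585. Limma gave unadjusted p-values of 0.036 and 0.0062 and adjusted p-values of 0.33 and 0.15 over 29854 probes, so neither passed the threshold of 0.05. Of all probes, 1.07% passed for stage, and 13.1% had an unadjusted p under 0.05. With slide as a random block the effects were 1.16 and 1.66, with limma adjusted p-values of 0.39 and 0.16. Both moribund arrays lay above all 6 month 4 arrays for 2 of the 6 member probes, the 2 of Runx1, and this held for 13.2% of all probes. Without the Double_mutant array the stage effect was 0.47 and 1.34. Within slide 1, Double_MDS was above Double_mutant by 1.84 (3.59-fold) and 1.58 (2.98-fold), where 16.0% of probes were at least 2-fold higher and 14.4% lower. Double_MDS_ML, on another slide, was above Double_mutant by 1.19 and 1.99, where 12.9% of probes were at least 2-fold higher and 12.0% lower. Here and below, 2-fold shares of a pair are over probes well above background on at least 1 of its arrays. Shares for groups of arrays that do not overlap are over the 29854 probes tested.

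The cells on the moribund arrays also differed in markers. Megakaryocyte markers (Pf4, Gp9, Itga2b, Vwf, Gp1bb) were well above background in 5 of 5 cases on all 8 arrays. Their mean was 3.66 on Double_MDS and 3.60 on Double_MDS_ML against -0.10 to 2.26 at month 4. Vwf lay within its month 4 range, at -0.08 on Double_MDS and 2.35 on Double_MDS_ML against -0.45 to 3.89. Gp1bb read -1.23 on both against -2.74 to -1.53. Pf4, Gp9 and Itga2b were higher on both moribund arrays than on every month 4 array. Flt3, a receptor of early lymphoid and myeloid progenitors, read -2.34 and -1.28 against 3.23 to 5.90, and the stem cell antigen gene Ly6a read 0.53 and 1.18 against 3.17 to 4.14. Kit, the sort receptor, read 5.11 and 4.97 against 4.06 to 4.99. The part of these marker differences in the Runx1 result was not tested. In sorted bulk samples such as these, fewer cells of a type and less RNA per cell cannot be told apart.

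RUNX1S291fs itself was not associated with a Runx1 change that passed the test. Its fitted effect was 0.72 (SE 0.38, 95% interval -0.18 to 1.61) on A_55_P2183438 and 0.25 (SE 0.36, 95% interval -0.58 to 1.09) on A_51_P206585, with limma adjusted p-values of 1.00 for both. The effect on A_55_P2183438 was 0.088 without RUNX1_mutant and 1.14 without Double_mutant or without Ezh2_deleted. In the whole fit, 0.0134% of probes passed for RUNX1S291fs, and 4.8% had an unadjusted p under 0.05. No member probe separated the 4 RUNX1S291fs arrays from the other 4, upwards or downwards, against 3.32% and 4.03% of all probes. Without Double_mutant, both Runx1 probes lay higher on all remaining carriers, as did 6.89% of all probes, and without CD45.1_in_double_mutant A_55_P2183438 alone did, with 4.17% of all probes. Cbfb lay lower on all carriers without Ezh2_deleted (5.62% of all probes) or without Double_MDS_ML (5.18%). Within slide 2, RUNX1_mutant was above CD45.1_in_RUNX1_mutant by 1.17 and 0.91 on the 2 Runx1 probes. Mast cell and basophil markers (Cpa3, Fcer1a, Ms4a2, Mcpt8, Hdc) had a mean level of 2.54 on RUNX1_mutant and 3.34 on Double_mutant. It was -0.80 on WT and 1.08 on CD45.1_in_RUNX1_mutant, and on the moribund carriers 2.24 (Double_MDS) and -0.46 (Double_MDS_ML). Mcpt8 read 2.35 on RUNX1_mutant and 3.25 on Double_mutant, below 3.81 on CD45.1_in_RUNX1_mutant, while Cpa3, Fcer1a, Ms4a2 and Hdc were higher on both. The part of these markers in these differences was not tested.

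Deleted Ezh2 had a fitted effect on Runx1 of -0.32 (SE 0.38, 95% interval -1.22 to 0.58) and -0.36 (SE 0.36, 95% interval -1.20 to 0.47), and 0 of the 6 member probes passed. Across all 29854 probes limma called 0 (0.0%) for Ezh2 deletion, with 609 (2.04%) at an unadjusted p under 0.05. Double_mutant stood below RUNX1_mutant on both Runx1 probes, with differences of -0.95 and -0.63, under the 2-fold mark. The interaction of both lesions on Runx1 was -1.05 (SE 0.74) and -0.45 (SE 0.77), with limma adjusted p-values of 0.93 and 0.98.

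Runx2 lies on chromosome 17 from 44495987 to 44814797, and 1 of its 2 probes gave a signal. Probe A_52_P460545 (NM_009820) read -1.57 on Double_mutant, -1.41 on CD45.1_in_RUNX1_mutant, -1.18 on WT and -0.88 on Double_MDS. It read -0.82 on CD45.1_in_double_mutant, -0.46 on Ezh2_deleted, -0.45 on Double_MDS_ML and -0.04 on RUNX1_mutant. Both single-lesion arrays were thus near the top, and the array with both lesions at month 4 was the lowest. Both single-lesion arrays lay on slide 2, and WT and Double_mutant on slide 1. No gap between neighbours exceeded the residual SD of 0.57, which includes departures from additivity. In the fit with the interaction that SD was 0.39, and the gap of 0.41 below RUNX1_mutant was just above it. The other probe, A_52_P55876, was well above background on 0 of 8 arrays and gives no level.

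RUNX1_mutant exceeded WT in Runx2 by 1.13, across slides, and exceeded CD45.1_in_RUNX1_mutant by 1.37 within slide 2. Together with Runx1 probe A_55_P2183438 this made 2 of 6 member probes at least 2-fold higher in either pair. In these pairs 9.31% of 31528 and 8.31% of 27536 probes were at least 2-fold higher, and 6.13% and 11.2% lower. Those probes were well above background on at least 1 array of the pair, the 6 members on all 8. The Runx2 difference fell under the 2-fold mark with normexp background correction in both pairs (0.88 and 0.82) and with median scaling in the first (0.99). Double_MDS_ML exceeded Double_mutant in Runx2 by 1.11, which was 0.74 with normexp and 0.97 with median scaling. Double_mutant differed in Runx2 from RUNX1_mutant by -1.52 and from Ezh2_deleted by -1.11, both across slides. In the first pair 9.47% of all probes were at least 2-fold lower and 7.07% higher, and in the second 11.6% lower and 8.86% higher. The second difference was -0.68 with normexp and -0.84 with median scaling. The interaction of both lesions on Runx2 was -2.20 (SE 0.72, 95% interval -3.91 to -0.49), larger in size than for 92.1% of probes tested. Its limma p was 0.019 unadjusted and 0.70 adjusted, and no probe of the array passed for the interaction (0.0%), with 1808 (6.06%) at an unadjusted p under 0.05. Among the CD45.2 arrays of month 4 this contrast is the same as slide 1 against slide 2, so interaction and slide cannot be told apart there. The additive effects on Runx2 were 0.21 (95% interval -0.98 to 1.40) for RUNX1S291fs, -0.20 (-1.39 to 0.99) for Ezh2 deletion and 0.24 (-1.22 to 1.70) for stage.

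Runx3 lies on chromosome 4 from 135120645 to 135177990. Its probe A_55_P2130895 (NM_019732) was the steadiest of the 6, at 1.80 on Ezh2_deleted and CD45.1_in_RUNX1_mutant, 1.97 on RUNX1_mutant and Double_mutant, 1.99 on Double_MDS and CD45.1_in_double_mutant, 2.01 on WT and 2.40 on Double_MDS_ML. The range of 0.60 was wider than that of only 5.16% of probes. The gap of 0.39 below Double_MDS_ML was the single one above the moderated residual SD of 0.33. That SD is larger than this probe's own SD of 0.19 over the 8 arrays. Effects were 0.09 (95% interval -0.61 to 0.78) for RUNX1S291fs, -0.08 (-0.77 to 0.61) for Ezh2 deletion and 0.27 (-0.57 to 1.12) for stage. For both genotype terms the interval of this probe lies within 2-fold in either direction.

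The other Runx3 probe, A_51_P494992, names the same transcript and gave another order. It read -1.41 on Double_mutant, -1.28 on CD45.1_in_RUNX1_mutant, -0.86 on WT and -0.58 on CD45.1_in_double_mutant. It read -0.48 on RUNX1_mutant, -0.44 on Double_MDS_ML, -0.43 on Double_MDS and -0.20 on Ezh2_deleted. Double_mutant was again the lowest, at a difference of -1.21 from Ezh2_deleted (-0.90 with normexp, -0.95 with median scaling), and no gap between neighbours exceeded the residual SD of 0.49. In the fit with the interaction that SD was 0.39, and the gap of 0.42 below WT was just above it. The 2 Runx3 probes correlated at r = 0.23 over 8 arrays, from 0.01 without CD45.1_in_RUNX1_mutant to 0.53 without Ezh2_deleted. Probe A_51_P494992 followed Runx2 probe A_52_P460545 with r = 0.86 (0.79 to 0.95 with 1 array left out), and both sit below the 75th percentile of signal on every array. This was the highest r between member probes of different genes. Runx1 probe A_51_P206585 and Runx3 probe A_55_P2130895, both above that percentile on every array, had r = 0.83 (0.64 to 0.96). Its interaction was -1.64 (SE 0.71), with a limma adjusted p of 0.84.

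**Figure D3:**
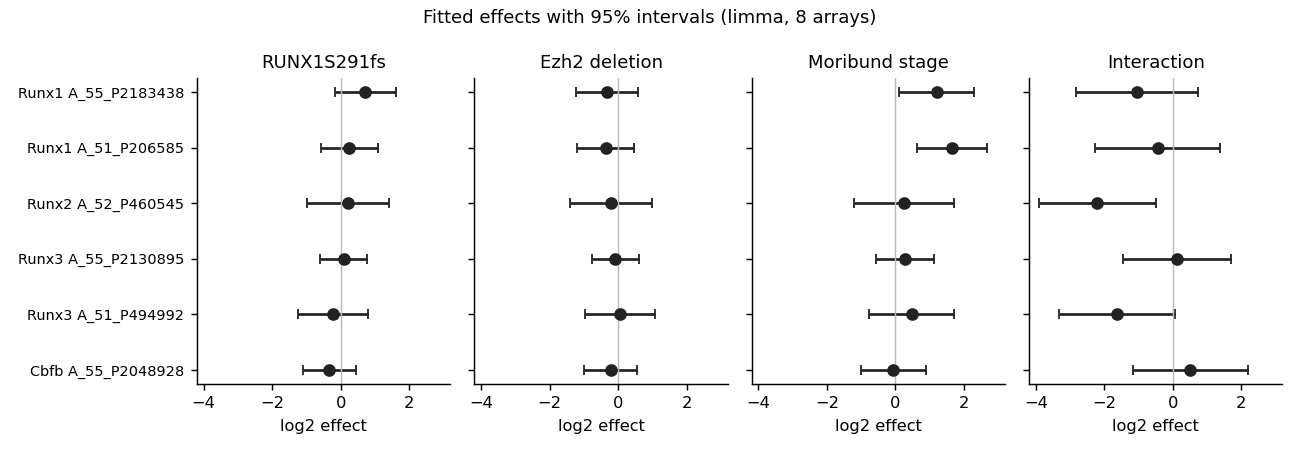
Fitted log2 effects of RUNX1S291fs, Ezh2 deletion, moribund stage and the interaction of both lesions (limma, 8 arrays) on the 6 member probes. Points are estimates and bars are 95% intervals. The intervals that leave out 0 are those of both Runx1 probes for stage and of Runx2 for the interaction, and none of these has an adjusted p under 0.05.

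Cbfb lies on chromosome 8 from 105170674 to 105217989 and was read by probe A_55_P2048928 (NM_001161458). The 3 wild-type arrays read 6.14 (WT), 6.17 (CD45.1_in_double_mutant) and 6.26 (CD45.1_in_RUNX1_mutant). The 5 arrays with a lesion read 5.20 on Double_MDS, 5.66 on RUNX1_mutant, 5.75 on Double_mutant, 5.77 on Ezh2_deleted and 5.87 on Double_MDS_ML. Every wild-type array thus lay above every array with a lesion, at a mean of 6.19 ± 0.07 (SD, n = 3) against 5.65 ± 0.26 (SD, n = 5), a difference of -0.54. Such a split, with the wild-type arrays above, held for 2.64% of all probes, the opposite split held for 2.38%, and it was looked for after the values were seen. With quantile normalization CD45.1_in_RUNX1_mutant read 5.83, within the range of the other arrays, and the groups overlapped. The gap of 0.46 between Double_MDS and RUNX1_mutant was the only one between neighbours above the residual SD of 0.37.

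No term of the model passed for Cbfb. The effect of RUNX1S291fs was -0.33 (SE 0.33, 95% interval -1.10 to 0.44), that of Ezh2 deletion was -0.21 (SE 0.33, 95% interval -0.98 to 0.56) and that of stage was -0.06 (SE 0.40, 95% interval -1.01 to 0.88), each with a limma adjusted p of 0.98 or above. Across the 8 arrays Cbfb ran against Runx1 probe A_55_P2183438 with r = -0.79, which was -0.55 without Double_MDS. Against Runx1 probe A_51_P206585 its r was -0.51, and -0.23 without Double_MDS. All these values share the same arrays and their scaling. Against wild-type cells of the same kind of recipient, Cbfb differed by -0.61 on RUNX1_mutant (-0.075 with quantile normalization) and by -0.42 on Double_mutant (-0.72 with quantile normalization).

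In 7 of the 13 pairs of arrays compared, none of the 6 member probes well above background on all arrays differed 2-fold. Ezh2_deleted against WT was one, where 8.44% of all probes were at least 2-fold higher and 4.3% lower. Double_mutant against WT, on 1 slide, was another, with 9.18% and 7.85%, and so was Double_mutant against the CD45.1 cells of the same kind of recipient, with 11.0% and 8.9%. The 2 moribund arrays also differed less than 2-fold in each of the 6 probes, Double_MDS_ML against Double_MDS having 9.76% and 11.1% of all probes past that mark. The same held for these 6 probes among the wild-type arrays, with 5.99% and 11.8% for CD45.1_in_double_mutant against CD45.1_in_RUNX1_mutant, 11.4% and 6.65% for CD45.1_in_RUNX1_mutant against WT, and 4.58% and 5.1% for CD45.1_in_double_mutant against WT.

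Runx1t1 lies on chromosome 4 from 13742628 to 13895056, and its single probe A_52_P612137 (NM_009822) was well above background on 1 of 8 arrays. That array was CD45.1_in_double_mutant, at -3.68. The other 7 arrays measured -6.75 to -5.49, all not well above background. Dim values were set to a floor, the dimmest signal of their array that still counted as well above background. CD45.1_in_double_mutant was then at least 2.96-fold higher than WT and at least 2.05-fold higher than Double_mutant. Of all probes, 4.58% were at least 2-fold higher than on WT and 5.1% lower. On Double_mutant, 8.9% were at least 2-fold lower than on CD45.1_in_double_mutant and 11.0% higher. Against CD45.1_in_RUNX1_mutant, on the same slide, the bound was only 1.08-fold, so the CD45.1 arrays were not set apart by 2-fold. The signal rests on 1 array, and the probe was not tested.

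Genes whose levels followed those of a member most closely were sought among 11303 genes, each by its brightest probe, over the same 8 arrays. For Runx1 these were Pdlim7 (r = 0.98), Thbs3 (0.97), Resf1, Ube2h and Plscr1 (0.96 each). Pdlim7 read 2.55 on WT, 3.84 on RUNX1_mutant, 2.65 on Double_mutant, 4.63 on Double_MDS and 4.25 on Double_MDS_ML, the same order as Runx1 probe A_55_P2183438 on these 5 arrays. For Runx2 the closest were Stk40 (0.96), Rela and Jmy (0.95), Pitpnm2 and Aldh3a2 (0.94), and all 5 were highest on RUNX1_mutant. For Runx3 they were Cyb561d1 (0.99), Smad5 and Slc46a3 (0.98), Tnrc6c and Gsdme (0.97), all highest on Double_MDS_ML. For Cbfb they were Pold3, Brms1l and Pfas (0.99), Slc25a51 and Mcm6 (0.97), all lowest on Double_MDS. Mcm6, a subunit of the replicative helicase, read 7.03 on Double_MDS and 7.97 on WT. These are the highest r of 11303 genes, all points share the same 8 arrays, and none was tested. A highest or lowest array shared with the member follows largely from this choice of genes.

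The proteins that work with RUNX factors, and genes known as their targets, were followed in 8 lists with 76 genes, of which 73 had a probe and 66 were tested. None of the 66 passed the limma threshold for RUNX1S291fs, Ezh2 deletion or stage, where 8, 2 and 22 had an unadjusted p under 0.05, against 4.8%, 2.04% and 13.1% of all 29854 probes. Over all probes the median effect was 0.02, 0.00 and -0.01. For each list the highest and the lowest RUNX1S291fs effects are given, up to 2 of each.

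Among 13 corepressors and relatives of Runx1t1 the median effect of RUNX1S291fs was 0.14. Tle1 (0.59) was highest, and Tle3 (-0.33) and Hdac1 (-0.27) lowest. These encode Groucho-type corepressors (Tle1, Tle3) and a histone deacetylase (Hdac1). Cbfa2t3, a close relative of Runx1t1, had a stage effect of 2.27 (SE 0.47, limma adjusted p 0.088), the smallest adjusted p in any list. Among 8 tested coactivators and modifiers the median was 0.28, with Crebbp (0.43) and Hipk2 (0.34) highest, and Yap1 (-2.45) and Prmt1 (-0.25) lowest. Yap1 was well above background on 4 of 8 arrays, so its value (SE 1.45) is no bound. Crebbp is an acetyltransferase and Prmt1 an arginine methyltransferase that modifies RUNX1.

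Of the 13 partner transcription factors, 10 had a positive RUNX1S291fs effect, with a median of 0.28. Gata2 (1.03) and Erg (0.63), factors of stem and progenitor cells, were highest, and Ets1 (-0.55) and Ldb1 (-0.36) lowest. This median was 0.082 without Double_mutant or without Ezh2_deleted and 0.61 without RUNX1_mutant. That of the corepressors was 0.035 without CD45.1_in_RUNX1_mutant, and that of the coactivators 0.17 without RUNX1_mutant. For stage, 8 of the 13 had an unadjusted p under 0.05 and none an adjusted one, with 8 positive and 5 negative effects, against 13.1% and 1.07% of all probes for stage. Gata2 was at 1.82 and Ldb1 at 1.52 for stage, and Ets1 at -1.98.

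Among the known RUNX1 targets, the 9 megakaryocyte genes had a median RUNX1S291fs effect of 1.12 and a median stage effect of 2.09. All 9 stage effects were positive. Itga2b, the platelet integrin chain, was at 2.87 (SE 0.75, limma adjusted p 0.45) for RUNX1S291fs, and Alox12 at 2.53, while Myl9 (-1.14) and Nfe2 (-0.03) were lowest. Alox12 was well above background on 7 and Myl9 on 6 of 8 arrays. The megakaryocyte markers given above share Pf4 and Itga2b with this list. Of the 8 myeloid targets 7 were tested, with a median of 1.46 for RUNX1S291fs and -2.98 for stage. Cebpe (2.55) and Elane (2.02), genes of granulocyte maturation, were highest, and Il3 (-0.25) and Gfi1 (0.08) lowest. Il3 was well above background on 3 of 8 arrays, so its value is no bound. Gfi1, which encodes a transcriptional repressor needed for neutrophil development, had a stage effect of -5.60 (limma adjusted p 0.093). The RUNX1S291fs median of the megakaryocyte list was 0.21 without CD45.1_in_RUNX1_mutant. That of the myeloid list was -0.41 without Double_mutant or without Ezh2_deleted and 3.06 without RUNX1_mutant, and its stage median was -0.41 without Double_mutant and -4.53 without Ezh2_deleted or without RUNX1_mutant. Neutrophil markers had a mean of 5.67 on Double_mutant, 4.73 on Double_MDS and -2.90 on Double_MDS_ML, against -0.24 to 4.16 on the other 5 arrays. Monocyte markers had a mean of 0.54 and 0.44 on the moribund arrays, 4.09 on Double_mutant and 2.30 on RUNX1_mutant, and 0.68 to 4.29 on the other 4. The part of these markers in the values of the list was not tested.

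Of the 9 lymphoid targets 6 were tested, with a median RUNX1S291fs effect of -2.13 and a stage median of -1.31. Rag1, the recombinase of antigen receptor genes, was at -5.32 (SE 1.21, limma adjusted p 0.34) and the B cell factor gene Ebf1 at -4.45, while Zbtb7b (0.61) and Cd4 (0.23) were highest. Rag1 and Ebf1 were well above background on 3 of 8 arrays each, and such fits are no bounds. For Ebf1 these arrays were WT, Ezh2_deleted and CD45.1_in_double_mutant, all without RUNX1S291fs. Its negative RUNX1S291fs effect thus followed from how it passed the filter, and it enters the list median. With probes above background on all 8 arrays alone, the RUNX1S291fs median of the list was 0.23 and the stage median -0.16. The stage median was -0.66 with normexp background correction, -0.73 without Double_MDS, -0.41 without Ezh2_deleted or without RUNX1_mutant and -2.74 without Double_mutant. B cell markers had a mean of 2.88 on Ezh2_deleted and 0.18 on CD45.1_in_double_mutant and of -4.69 to -3.02 on the other 6 arrays. The part of such cells was not tested.

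Of 8 bone targets of RUNX2, 4 were tested, with a RUNX1S291fs median of -0.58. Mmp9 (0.40) and Col1a1 (0.30) were highest, and Alpl (-4.78, limma adjusted p 0.35) and Spp1 (-1.47) lowest, none of them well above background on all 8 arrays. The Runx2 probe was at 0.21. Of 7 cytotoxic T cell genes of RUNX3 6 were tested, with a median of -0.53. Itgal (0.30) and Prf1 (-0.05) were highest, and Ifng (-2.25) and Eomes (-2.02) lowest, against 0.09 and -0.23 for the probes of Runx3. Ifng was well above background on 5 and Eomes on 3 of 8 arrays, so their values are no bounds. The median of this list was -0.20 with normexp background correction, -0.23 with probes well above background on all 8 arrays, -0.35 without Double_mutant or without Ezh2_deleted and -0.99 without RUNX1_mutant, and that of the bone targets -0.13 with normexp and -0.033 with no filter on dim probes.

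**Figure D4:**
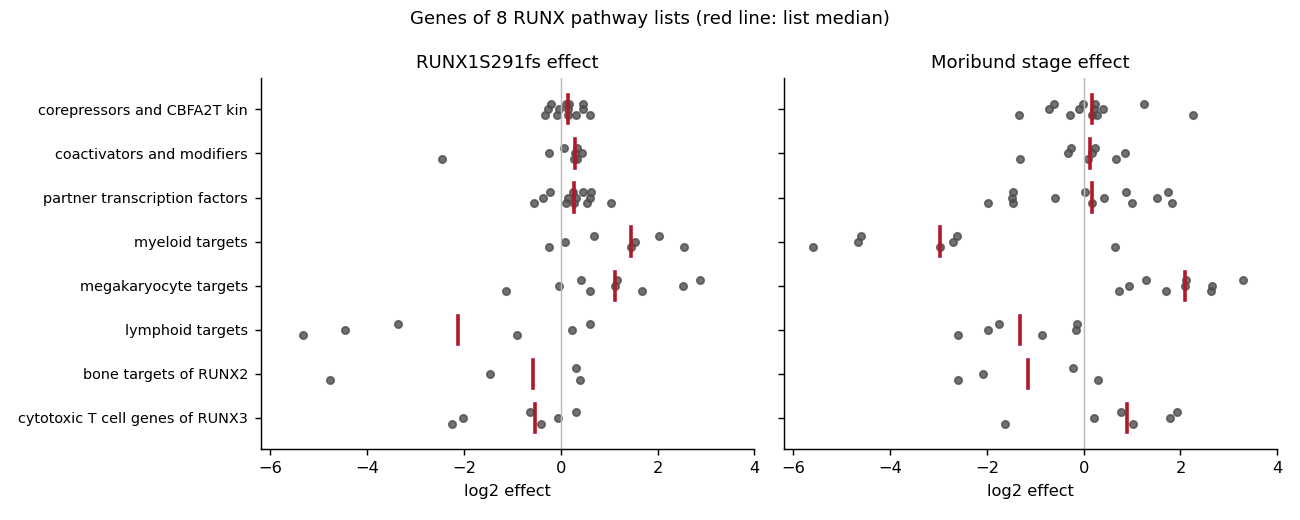
Fitted log2 effects of RUNX1S291fs (left) and moribund stage (right) for the 66 tested genes of 8 RUNX pathway lists, 1 point for each gene, with a red line at the median of each list. The megakaryocyte stage median is 2.09, with all 9 genes to the right of 0, and no gene of any list has an adjusted p under 0.05.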

How the data were processed

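RNA of 8 mouse LSK samples, 1 array each, was read on Agilent one-colour arrays. Per the labels, 20 ng of total RNA was amplified and labelled with Cy3. Per the file headers, Feature Extraction 10.7.1.1 gave a processed signal, a fluorescence intensity with background subtracted, unscaled between arrays. The table deposited by the authors holds linear signal that equals the processed intensity divided by 1 factor for each array, with all probes within 0.01 log2 of that ratio and a 75th percentile of 1.00 to 1.01. It is not centred on genes.

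Spots of a probe were averaged on the log2 scale, and the 75th percentile of the array was subtracted. Gene names came from RefSeq (GRCm38.p6) through transcript accessions, for 27235 of 55681 probes. Probes well above background on at least 3 of 8 arrays (29854) were fitted with limma 3.58.1 in R 4.3.3, with terms for RUNX1S291fs, Ezh2 deletion and stage, and in a further fit their interaction. P-values were adjusted by Benjamini-Hochberg over all 29854 probes. With 4 residual degrees of freedom, the spread is that among the 3 wild-type and among the 2 moribund arrays plus departures from additivity. It may be technical in part. Limma moderates this spread toward a value estimated from all probes, and every residual SD given is the moderated one. Pair differences used the 2-fold mark, dim values being set to the lowest signal called well above background. Other scalings, backgrounds, filters and subsets of arrays were run as alternatives. Normexp used the median spot and local background intensity of the deposited scanner files, with an offset of 50, in place of the planned mean signal.

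The members and gene lists were chosen with earlier results of these data known. Named were all member probes, the 5 genes most like each member, and of each pathway list the 2 highest and 2 lowest RUNX1S291fs effects, Gfi1 and Cbfa2t3 being added for their stage effects after the values were seen. One value that this rule would name is not reported here.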

Additional observations from a re-analysis of the deposited data

How the results depend on the processing

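Under 18 alternatives for each genotype effect, 16 for stage and 14 for the interaction, no member probe passed an adjusted p of 0.05 by limma. The Runx1 stage effect was 0.47 to 1.53 on A_55_P2183438 (limma adjusted p 0.25 to 1.00) and 1.34 to 1.85 on A_51_P206585 (0.088 to 0.75), lowest without Double_mutant. With both directions counted, the moribund and month 4 arrays did not overlap for 2 or 3 member probes under every alternative run. No share of all probes is given for these alternatives, so this count has no background.

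At the 2-fold mark, RUNX1_mutant against WT gave 1 member probe with normexp and 1 with median scaling in place of 2, Double_mutant against Ezh2_deleted 0 with both in place of 2, Double_mutant against RUNX1_mutant 2 with quantile normalization in place of 1, and RUNX1_mutant against its CD45.1 cells 1 with normexp in place of 2. Carriers separated from the other arrays for 0 to 2 member probes when 1 array was left out. Wild-type arrays separated from the rest for 0 with quantile normalization and for 1 to 2 with 1 array left out. For these wild-type counts no share of all probes is given, so they have no background.

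Over all probes, limma calls for RUNX1S291fs numbered 4, against 44 with normexp, 10 with quantile normalization, 9 with median scaling, 2 with slide as a random block, 2 with 1 probe a gene, 1 without a filter, 1 on month 4 arrays alone, 1 without a stage term, 0 for probes above background on all 8 arrays (811 at an unadjusted p under 0.05), and 0 to 2 with 1 array left out. Stage calls numbered 320, against 145 without a filter, 509 with normexp, 211 for probes above background on all 8 arrays, and 0 to 395 with 1 array left out, 0 without Double_mutant or CD45.1_in_double_mutant. Pathway genes called numbered 4 with normexp (Il7r for RUNX1S291fs, Cbfa2t3, Gfi1 and Gp1ba for stage) and 0 to 2 with 1 array left out (2 without CD45.1_in_RUNX1_mutant, Cbfa2t3 and Itga2b).

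For member probes the following directions turned. Ezh2 deletion turned on Runx3 A_51_P494992 with median scaling (-0.016) and, without a stage term, on Runx1 (0.083 and 0.19) and Runx3 A_55_P2130895 (0.012). Quantile normalization turned the stage effect on Cbfb (0.14) and the interaction on Runx3 A_55_P2130895 (-0.076). With 1 array left out, the RUNX1S291fs effect ran from -0.015 to 0.43 on Runx1 A_51_P206585, from -1.11 to 1.09 on Runx2 and from -1.21 to 0.43 on Runx3 A_51_P494992. The Ezh2 deletion effect then ran from -0.95 to 0.10 on Runx1 A_55_P2183438, from -1.52 to 0.68 on Runx2, from -0.93 to 0.71 on Runx3 A_51_P494992 and from -0.42 to 0.091 on Cbfb. The stage effect ran from -1.30 to 0.90 on Runx2, from -0.67 to 0.97 on Runx3 A_51_P494992 and from -0.40 to 0.29 on Cbfb. The cause of these changes was not tested. With probes above background on all 8 arrays, no bone target remained. The interaction could not be fitted without Ezh2_deleted, RUNX1_mutant or Double_mutant. No paired analysis was possible because each group has 1 array, and the 2 pairs of donor and CD45.1 cells from the same kind of recipient leave no residual degrees of freedom for separate genotype terms. The dim second Runx2 probe and Runx1t1 are limited by signal over background.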
